A study of Mus musculus with 34 samples.

Results

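Chromatin accessibility, read by ATAC-seq from the places where a transposase can insert into DNA, was compared between mouse hair follicle stem cells (HFSCs) of late catagen (CatVII Rxra WT, n = 4) and of full anagen (AnaVI wild type, n = 2). These 6 samples were chosen by their titles out of 34 in the series, and the question was which accessible regions differ between the growth phase of the hair cycle and the phase in which the follicle regresses. The catagen samples are the controls of an Rxra deletion experiment. For the cells sorted for ATAC-seq the study gives the genotype as Rxra+/+ with Sox9-creER and a R26 YFP reporter, whereas its methods describe the controls of this line more broadly, as mice without Sox9-creER or with it and a single Rxra fl allele. The labels say only Rxra WT. By the methods, mice of this line received tamoxifen. An effect of tamoxifen, of the Cre and reporter alleles, of an Rxra fl allele where one was carried, or of the strain cannot be told apart from the hair cycle stage. The anagen mice were wild type and, by the study's staging methods, received the DNA label EdU shortly before collection, and their strain and age were not given per sample. Both kinds of cells were sorted from skin by flow cytometry after removal of other lineages, but the gates differed. Wild type cells were taken as CD34high ITGA6+, and for Rxra WT cells YFP took the place of CD34, so that the gate cannot be told apart from the stage either. Stored peak names carry the tag P33 in both anagen libraries, P42 in catagen replicate 1 and P37 in catagen replicates 2, 3 and 4. All 4 catagen names also carry the tag NonPhago and the anagen names carry no such tag, so the same holds for the tag. The names of catagen replicates 2, 3 and 4 follow on in their numbering from those of 3 CatVII wild type libraries, whereas that of replicate 1 has the form of the Rxra cKO names. The labels were followed, and values without replicate 1 are given beside the main results.

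During anagen, HFSCs of the bulge lie quiet while progeny below them build the hair. In catagen most of the epithelium below the bulge dies by apoptosis, and the dying cells are cleared by neighbouring epithelial cells, including HFSCs. Accessible regions are of 2 broad kinds. Promoters lie at transcription start sites, are rich in GC and open in most cell types, and distal elements such as enhancers lie away from them and differ more between cell states. The transcription factors LHX2 (a LIM homeodomain protein) and SOX9 keep HFSC identity, whereas AP-1 (dimers of FOS and JUN proteins) acts in responses to stress, growth signals and wounding.

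Peak lists held no read counts, and the libraries differed widely in depth. Anagen replicates 1 and 2 had 14307 and 52455 called peaks, and catagen replicates 1 to 4 had 43931, 101334, 58894 and 76402. Fragments estimated from the peak scores numbered about 2280000 and 9330000 in anagen and 16200000 to 47600000 in catagen. The shortest called peak, which depends on the fragment lengths of a library, was 70, 121, 138 and 84 bp in catagen replicates 1 to 4, 58 and 89 bp in anagen, and 126 to 150 bp in the 6 CatVII wild type libraries of the series. Catagen replicates 1 and 4 thus lay between the anagen libraries in this respect, replicate 2 lay between anagen and CatVII wild type, and replicate 3 lay within the CatVII wild type range. To set depth aside as far as the lists allow, each library was cut to its 14181 peaks of highest -log10 p, the number that anagen replicate 1 had on the autosomes and sex chromosomes. A peak among these is called listed, and ranks count from 1 at the highest -log10 p.

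Anagen replicate 1 stood apart. Its lowest listed -log10 p was 4.40, against 13.2 or more in every other library of the comparison, its median listed peak was 97 bp wide against 246 to 951 bp, and 10.8% of its listed peaks lay in repeated sequence against 2.46% to 6.15%. Similarity between libraries was measured by the Jaccard index, the number of merged regions that 2 libraries share over the number that either has. It was 0.507 to 0.665 between catagen libraries, 0.397 between the anagen libraries, and 0.289 to 0.440 between the groups. Anagen replicate 2 thus shared more regions with each catagen library (0.415 to 0.440) than with anagen replicate 1. The mean within groups exceeded the mean between groups by 0.186 (exact permutation p = 0.0667, one-sided). With 4 libraries against 2 there are 15 assignments, so 0.0667 is the smallest p that any permutation test here can give, and none can pass 0.05. The study calls its ATAC-seq replicates biological, and the labels name no mouse for the anagen libraries.

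Among 16 genes of HFSC transcription factors, 15 to 16 had a called peak at their own promoter in each catagen library and in anagen replicate 2, and 9 did in the shallow anagen replicate 1. Of all protein-coding genes, 51.6% to 66.8% had one in catagen and 22.3% and 52.5% in anagen, and genes used in many cell types were called at similar shares, with 24 of 24 cell cycle genes and 11 to 12 of 12 constitutive genes in the same 5 libraries. Of 19 HFSC surface and niche genes, 14 to 18 had a called promoter in these libraries and 5 in anagen replicate 1, and 7 of them (Cd34, Lgr5, Krt14, Krt24, Cd200, Dkk3 and Npnt) had a listed promoter in none of the 6. Called promoters of these lists therefore did not set HFSCs apart from other cells. The promoters of Sox9 and Rxra were listed in all 6 libraries. Of 10 immune cell markers, none had a listed promoter in any library, and 0 to 2 had a called one. Fibroblast markers had 0 to 1 listed promoters of 10 in catagen and 1 to 2 in anagen, endothelial markers 0 to 1 of 8, sebocyte markers 1 to 3 of 8, and melanocyte markers 2 to 3 of 10 in catagen and 1 in anagen. Peaks in the windows of fibroblast markers, from 50 kb upstream to 5 kb downstream of a gene, made up 0 to 0.00705% of listed peaks in catagen and 0.0141% to 0.0212% in anagen. In windows of endothelial markers the shares were 0.0635% to 0.0776% in catagen and 0.0423% to 0.0494% in anagen. In those of immune markers they were 0.0776% to 0.0917% against 0.0635% and 0.0705%, and in those of sebocyte markers 0.0353% to 0.0564% against 0.0212% and 0.0282%. Melanocyte windows overlapped, at 0.0494% to 0.0635% against 0.0282% and 0.0494%. These shares rest on few peaks, and the groups did not overlap for 13 of 22 gene lists (59.1%). The part of these markers in the results was not tested.

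Merging the listed peaks gave 28961 regions, of which 18458 had a peak in at least 2 libraries. Of these, 1117 were listed in all 4 catagen libraries and neither anagen library (6.05%, here called catagen-listed), and 1399 were listed in both anagen libraries and no catagen library (7.58%, anagen-listed). Without catagen replicate 1 the catagen-listed regions numbered 1988, and without anagen replicate 2, 2973. The anagen-listed regions numbered 3522 without anagen replicate 1 and 5448 without replicate 2. These are differences in rank more than in presence. When all called peaks were used, 983 of the 1117 catagen-listed regions (88.0%) also had a peak in anagen replicate 2, at a median rank of 22029, although none did in replicate 1, whose whole list was already used. In the same way, 763 of the 1399 anagen-listed regions (54.5%) had a weaker peak in all 4 catagen libraries, 611 had one in 1 to 3 of them, and 25 (1.79%) had none in any. The deepest library, catagen replicate 2, had a peak in 97.1% of the anagen-listed regions, at a median rank of 35632.

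The regions below show what the lists turn on. The first set holds 2 of the 3 best-ranked catagen-listed regions outside promoters with the AP-1 word, TGAGTCA. The second holds the 3 best-ranked anagen-listed regions outside promoters with the LIM homeodomain word, CTAATTA, which is bound by LHX2 and many other homeodomain proteins. The last is the best-ranked catagen-listed promoter with the KLF/SP word, GGGCGGG. Regions of repeated sequence and windows that touch an annotated exon of a protein-coding gene were passed over. Each sequence is the plus strand of mm39 from 100 bp before to 100 bp after the summit, and capitals mark the word of its set on either strand.
Tpbg region, AP-1, chr9:85768460-85768660: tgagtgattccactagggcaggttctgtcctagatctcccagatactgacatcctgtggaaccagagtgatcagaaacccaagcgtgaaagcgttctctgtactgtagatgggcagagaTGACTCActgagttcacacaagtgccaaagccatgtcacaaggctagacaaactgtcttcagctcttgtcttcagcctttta
Lclat1 region, AP-1, chr17:73570145-73570345: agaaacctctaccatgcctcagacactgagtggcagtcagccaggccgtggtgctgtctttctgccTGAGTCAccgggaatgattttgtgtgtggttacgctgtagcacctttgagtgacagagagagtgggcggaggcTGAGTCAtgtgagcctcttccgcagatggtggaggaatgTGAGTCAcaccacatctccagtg
Fam53a region, LIM homeodomain, chr5:33699692-33699892: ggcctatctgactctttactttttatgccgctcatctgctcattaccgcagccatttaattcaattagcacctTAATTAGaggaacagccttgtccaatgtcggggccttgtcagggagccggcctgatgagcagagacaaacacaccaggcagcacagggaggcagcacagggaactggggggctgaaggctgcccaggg
Akr1cl region, LIM homeodomain, chr1:65032440-65032640: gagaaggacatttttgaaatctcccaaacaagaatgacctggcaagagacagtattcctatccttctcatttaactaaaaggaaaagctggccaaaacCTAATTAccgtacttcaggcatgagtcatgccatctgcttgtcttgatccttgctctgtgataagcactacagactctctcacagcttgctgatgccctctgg
Brinp2 region, LIM homeodomain, chr1:157991783-157991983: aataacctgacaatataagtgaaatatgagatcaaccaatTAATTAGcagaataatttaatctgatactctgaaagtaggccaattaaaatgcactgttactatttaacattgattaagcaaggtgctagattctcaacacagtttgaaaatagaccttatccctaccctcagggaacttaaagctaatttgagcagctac
Fbxw7 region, KLF/SP, chr3:84721637-84721837: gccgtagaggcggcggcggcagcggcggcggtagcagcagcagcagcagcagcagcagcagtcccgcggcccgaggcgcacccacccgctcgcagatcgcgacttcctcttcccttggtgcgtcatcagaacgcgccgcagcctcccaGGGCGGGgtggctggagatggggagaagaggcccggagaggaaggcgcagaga

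The Tpbg region, intergenic and 43146 bp from the start site of a gene for a surface protein that dampens WNT signalling, ranked 5073, 2528, 2523 and 801 in catagen replicates 1 to 4, with folds over background of 12.5, 17.7, 12.3 and 17.6. Anagen replicate 1 had no peak there and anagen replicate 2 had one at rank 35417 with a fold of 5.54. The Lclat1 region, 59100 bp from the nearest start site, held 3 copies of the AP-1 word and ranked 651 to 5866 in catagen and 30675 in anagen replicate 2. Both regions were also listed in 6 of 6 CatVII wild type libraries, which the choice of regions did not use. Those libraries listed 39% to 83.7% of all catagen-listed regions and 30.9% to 65.1% of all tested regions. Of the 3 CatVII Rxra cKO libraries, 1 listed the Tpbg region and 2 the Lclat1 region.

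The anagen examples were all intergenic. The Fam53a region (75035 bp from the start site) ranked 310 and 1273 in anagen and 14236 to 24381 in catagen. The Akr1cl region ranked 447 and 1185 in anagen and 14488 to 40160 in catagen, and the Brinp2 region 787 and 943 against 16927 to 30618. In each of these regions both anagen libraries ranked above all 4 catagen libraries, which the choice of regions fixed. How far the ranks fell outside the listed part varied, and the Fam53a region lay just outside it in catagen replicate 3 (rank 14236). Folds separated the groups at none of the 3, with 9.74 and 17.1 in anagen and 6.31 to 16.4 in catagen at Akr1cl, 10.9 and 14.4 against 6.36 to 11.5 at Fam53a, and 9.04 and 14.1 against 6.96 to 13.3 at Brinp2. The Akr1cl window also held an AP-1 word. The Fam53a region was listed in 2 of 6 CatVII wild type and 2 of 3 CatVII Rxra cKO libraries. The Akr1cl region was listed in 0 and 1 of these, and the Brinp2 region in 0 and 0.

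The best-ranked regions outside repeats, 10 in each direction, were of different kinds. Of the 10 catagen-listed ones, 5 were promoters, of Fbxw7 (a ubiquitin ligase subunit that marks cyclin E and MYC for destruction), Mia3 (collagen export from the endoplasmic reticulum), Tmem87a, 3110040N11Rik and Slc16a10 (an aromatic amino acid transporter). None of the 10 anagen-listed ones was a promoter, and 9 of them were intergenic. Fbxw7 ranked 881 to 3077 in catagen and 14944 in anagen replicate 2, close to the end of the list. The best-ranked catagen-listed region of all, 9163 bp from a start site of the zinc finger gene Zfp945, ranked 470, 5442, 363 and 195 in catagen and had no called peak in either anagen library. The best-ranked anagen-listed region, 130067 bp from Tmeff2, ranked 455 and 612 in anagen and 15924 to 23467 in catagen. The region in an intron of Ank3, the gene of ankyrin G, ranked 299 and 1414 in anagen and 14351 to 31671 in catagen.

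**Figure D1:**
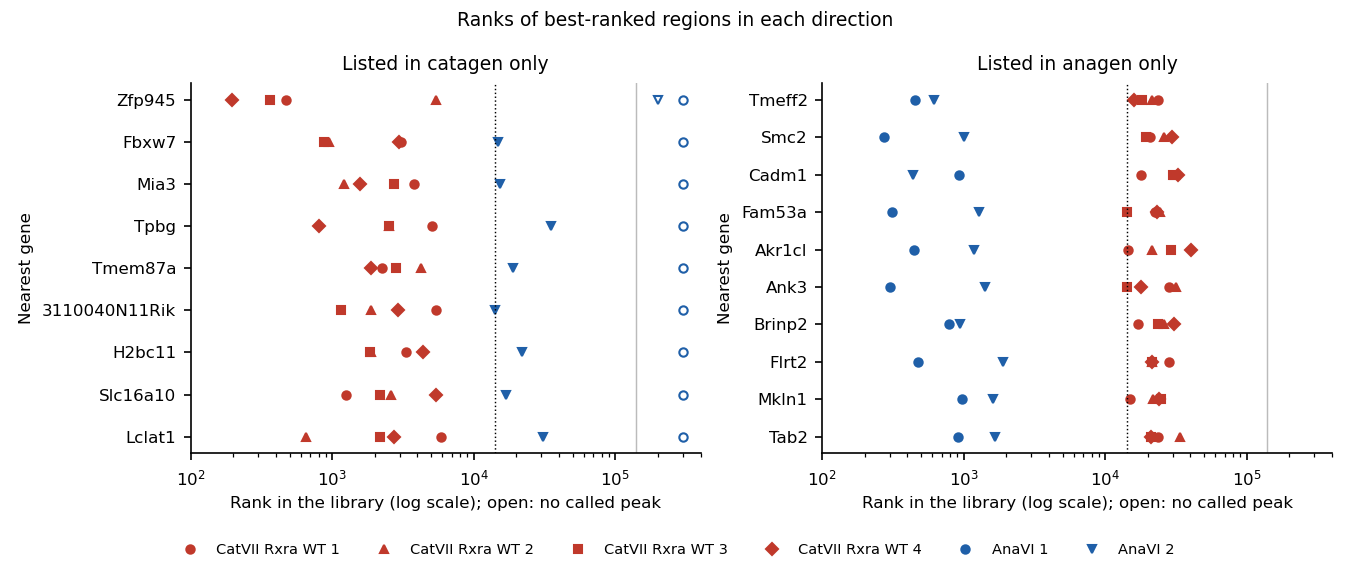
Ranks of 9 of the 10 best-ranked catagen-listed regions (left) and of the 10 best-ranked anagen-listed regions (right) in each of the 6 libraries, on a log axis, with a dotted line at rank 14181 and open symbols at the right of the grey line for no called peak. Red symbols stand for catagen and blue for anagen, and 8 of the 9 catagen-listed regions have a weaker peak in anagen replicate 2, whereas all 10 anagen-listed regions have a weaker peak in all 4 catagen libraries.

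Catagen lists held more promoters. Peaks within 1 kb of a transcription start made up 52.4%, 57.3%, 52.9% and 48.2% of listed peaks in catagen replicates 1 to 4, and 33.4% and 41.4% in anagen. The groups did not overlap, with 52.7% ± 3.69 (SD, n = 4) against 37.4% ± 5.65 (n = 2), a difference of 15.4 percentage points (p = 0.0667, two-sided exact permutation test). The gap was widest among the strongest peaks. In ranks 1 to 3545 promoters made up 64.4% to 80.4% in catagen and 44.9% and 54.8% in anagen, and in ranks 10636 to 14181 they made up 35.4% to 38.6% against 24.3% and 31.4%. Beyond the listed part, in ranks 14182 to 28362, anagen replicate 2 (25.6%) lay within the catagen range (23.7% to 27.6%). Without catagen replicate 1 the difference was 15.5 percentage points. With all called peaks it turned to -4.05 percentage points (exact permutation p = 0.400, two-sided). All called peaks make lists of unequal length. With anagen replicate 1 left out and longer lists it was 3.02 percentage points, and with peaks ranked by fold 9.97.

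Between the 2 sets of regions the contrast in position was wide. Of the catagen-listed regions, 552 of 1117 lay at promoters (49.4%, 95% Wilson interval 46.5 to 52.3), much as the 49.2% of regions that were in neither set. Of the anagen-listed regions, 66 of 1399 did (4.72%, interval 3.73 to 5.96). Their median distance to the nearest start site was 34454 bp, against 1248 bp for catagen-listed regions, and 41.6% lay more than 50 kb away. By annotation, 51.7% of anagen-listed regions were intergenic and 40.3% intronic, and their median GC content was 45.3% against 56.7% for catagen-listed regions. The intervals cover counting error only, and the regions share the same 6 libraries.

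Seen by gene, 556 genes of the 9184 with a listed promoter in at least 2 libraries had one in all 4 catagen and neither anagen library (6.05%), and 43 had the reverse (0.468%). Anagen libraries listed 22.3% and 29.6% of all protein-coding gene promoters and catagen libraries 33.8% to 40.9%, so a gene list with more listed promoters in catagen shares that with genes in general.

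Genes of phagosome maturation, which carry engulfed corpses to the lysosome, had the highest share of listed promoters among the clearance lists. In catagen 21 to 24 of 24 were listed and in anagen 16 and 19. Rab7, Rilp and Vps41, which act together in the fusion of late endosomes with lysosomes, were listed in all 4 catagen libraries and in neither anagen library. These were 3 of 24, against 6.05% of all genes with a listed promoter in at least 2 libraries. At the Rab7 promoter (chr6:88021184-88022609), catagen ranks were 12241, 5776, 13587 and 4634, and anagen replicate 2 had a called peak at rank 21153. The Vps41 promoter ranked 6311, 4449, 8567 and 3323 in catagen and 22306 in anagen replicate 2. Anagen replicate 1 had no called peak at either. The choice of promoters listed in all 4 catagen and neither anagen library fixed this and the order of the ranks.

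Genes of the phagocytic cup, which shape actin around a corpse, had 13 to 17 listed promoters of 23 in catagen and 9 and 10 in anagen. Lysosomal genes had 18 to 22 of 29 against 16 and 18, which overlap. Receptors for apoptotic cells had 2 to 4 of 18 against 1 and 3, and bridging and eat-me proteins 3 to 5 of 14 against 4 and 4. No gene of these 4 lists was listed in all catagen and neither anagen library or the reverse. As the share of listed peaks in their windows, the 5 clearance lists took 1.35% to 1.41% in catagen and 1.11% and 1.14% in anagen (difference 0.245 percentage points, exact permutation p = 0.0667, two-sided, 0.145 after adjustment over the lists). This difference fell to 0.0193 percentage points with all called peaks (exact permutation p = 0.400, two-sided) and to 0.0960 with longer lists and anagen replicate 2 alone. The groups did not overlap for 13 of 22 gene lists (59.1%), and constitutive genes (0.190% to 0.261% against 0.155% and 0.183%) were among them.

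Retinoid and engulfment receptor genes, with which the study is concerned, were then compared promoter by promoter. For engulfment genes the study reports enhancers that open in catagen, which the ranks of promoters do not test. Rxra, which encodes a nuclear receptor that pairs with retinoic acid and lipid receptors, had its promoter at ranks 6670, 9694, 2901 and 12652 in catagen and 3764 and 3856 in anagen. Rarg, the retinoic acid receptor gene, ranked 10499, 10233, 6493 and 15028 in catagen and 10448 and 8806 in anagen. These ranks overlap between the groups for both genes. Rara ranked 6780, 11096, 16681 and 13580 in catagen, and in anagen it had no called peak in replicate 1 and rank 27445 in replicate 2. In its whole window Rxra had 4, 4, 3 and 2 listed peaks in catagen and 4 and 3 in anagen. Rarg had 5, 4, 2 and 3 against 2 and 3, and Rara 4, 2, 1 and 2 against 1 and 0.

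Mertk, an engulfment receptor that binds phosphatidylserine through bridging proteins, had its promoter at ranks 9276, 10136, 14025 and 5534 in catagen and 7015 and 10405 in anagen, so it was listed in all 6. Its window also held a catagen-listed region (chr2:128528861-128529566), which lies at the promoter of the neighbouring cell cycle gene Anapc1. That region ranked 6345, 7920, 5514 and 8014 in catagen and 34410 in anagen replicate 2, and was listed in 0 of 6 CatVII wild type and 3 of 3 CatVII Rxra cKO libraries. The related receptor genes Axl and Tyro3 had no listed promoter in any of the 6 libraries. Mfge8, which bridges phosphatidylserine to integrins, ranked 1887 and 5206 in anagen and 10078, 15911, 5930 and 3870 in catagen. The ligand gene Gas6 was listed in 1 catagen library, replicate 1, at rank 9066. In its whole window Mertk had 3, 4, 5 and 5 listed peaks in catagen and 5 and 4 in anagen. Axl had 1, 3, 3 and 2 against 5 and 3, and Tyro3 2, 1, 1 and 1 against 1 and 2. Mfge8 had 1, 0, 1 and 2 against 1 and 2, and Gas6 1, 1, 1 and 1 against 0 and 0.

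Like the Anapc1 region, other catagen-listed regions in the windows of listed genes lay at the promoters of neighbours. The best-ranked was in the window of Elmo3, a gene of the engulfment machinery, at the promoter of Tmem208, with ranks of 2380 to 5271 in catagen and 17587 in anagen replicate 2. The one for Bmf, a BH3-only cell death gene, lay at the promoter of the mitotic checkpoint gene Bub1b, with 1185 to 9562 against 16423. It was listed in 0 of 6 CatVII wild type libraries and in 2 of 3 CatVII Rxra cKO libraries. Those for the lysosomal regulator gene Tfeb and the lysosomal enzyme gene Gla lay at the promoters of Frs3 and Rpl36a.

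Cell cycle genes had 17 to 19 listed promoters of 24 in catagen and 9 and 13 in anagen. Over all protein-coding genes, 33.8% to 40.9% were listed in catagen and 22.3% and 29.6% in anagen. The promoters of Cdk2 (shared with Pmel), E2f8 and Mki67 were listed in all 4 catagen and neither anagen library. These were 3 of the 20 cell cycle genes with a listed promoter in at least 2 libraries, against 6.05% of all such genes (556 of 9184). Mki67, the marker of cycling cells, ranked 2085, 10027, 6245 and 12091 in catagen and 35181 in anagen replicate 2. E2f8, a repressor of the E2F family, ranked 2623 to 10762 in catagen and 14674 in anagen replicate 2, just past the end of the list. Among apoptosis regulators, Apaf1 (the scaffold of the apoptosome), Birc3 and Pmaip1 were listed in catagen alone in the same sense, 3 of 21. The Apaf1 promoter, shared with Ikbip, ranked 2315, 2718, 7185 and 4767 in catagen and 22029 in anagen replicate 2. Of the list as a whole, 12 to 19 of 26 promoters were listed in catagen and 9 and 12 in anagen, which touch.

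Windows of HFSC genes held regions of both kinds. In the windows of HFSC transcription factors, 4 of 65 tested regions were catagen-listed (6.15%) and none anagen-listed. The best-ranked, 9144 bp from the start of Foxc1, which encodes a forkhead transcription factor, ranked 3497 to 11173 in catagen and 32706 in anagen replicate 2. In the windows of HFSC surface and niche genes, 1 of 50 was catagen-listed (2%) and 3 were anagen-listed (6%). Over all tested regions 6.05% were catagen-listed and 7.58% anagen-listed, so neither list exceeded the share of anagen-listed regions in general. The catagen one was the promoter of Itgb1, the integrin beta1 gene, at ranks 2613 to 10573 against 20514.

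The 3 anagen-listed ones lay at Lgr5, Cd34 and Sfrp1, genes of a stem cell receptor for R-spondins, of the surface protein by which HFSCs are sorted and of a secreted WNT inhibitor. The Lgr5 region (chr10:115291817-115292151) lies in an intron 2873 bp from the start site and ranked 6324 and 2644 in anagen and 25367, 19479, 29315 and 22588 in catagen. It was listed in 0 of 6 CatVII wild type and 2 of 3 CatVII Rxra cKO libraries. The Cd34 region, 29589 bp from the start site, ranked 8300 and 9866 in anagen and 27903, 56333, 47246 and 31722 in catagen. CD34 was part of the gate for anagen cells and not for Rxra WT cells, and the part of the gate was not tested. The Cd34 region was listed in 0 of 6 CatVII wild type libraries, which listed 1.36% to 7.22% of all anagen-listed regions. It was listed in 1 of 3 CatVII Rxra cKO libraries, which listed 9.94% to 36.0% of them. The Sfrp1 region ranked 11154 and 8730 in anagen and 22202 to 55769 in catagen, and was listed in 0 of 6 CatVII wild type and 2 of 3 CatVII Rxra cKO libraries. The promoters of Lgr5 and Cd34 themselves were listed in no library. In its whole window, Lgr5 had 5 and 4 listed peaks in anagen and 1, 2, 2 and 0 in catagen. These counts include the Lgr5 region above, which was chosen as listed in anagen alone. Other HFSC genes differed from Lgr5 in this count. Sox9 had 1, 2, 3 and 2 listed peaks in catagen and 1 and 1 in anagen, and Nfatc1 2, 2, 3 and 2 against 0 and 1. Krt15 had 2, 0, 2 and 3 against 2 and 2, and Lhx2 1, 1, 1 and 0 against 0 and 3. Cd34 had 1, 1, 1 and 1 against 2 and 2, which include the Cd34 region above. Krt15 and Lhx2 promoters were each listed in 3 catagen libraries and in anagen replicate 2.

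Other anagen-listed regions lay in the windows of signalling and metabolic genes. The retinoic acid receptor gene Rarb had one 28414 bp from its start site with the LIM homeodomain word, at ranks 5235 and 5446 in anagen and with no called peak in catagen replicates 1 and 4. Wnt10a, a ligand gene of the WNT pathway, had 2. Smad5, a transducer of BMP signals, had one in an intron at ranks 4587 and 3500, with catagen ranks of 29859 to 49374 and no peak in replicate 1. Bcl2l1, an inhibitor of apoptosis, had one at 2696 and 3147 against 19618 to 26956. Over lists, WNT pathway windows held 3 anagen-listed and 1 catagen-listed of 58 tested regions, BMP and TGF-beta windows 2 and 0 of 40, and epidermal differentiation windows 2 and 6 of 36. Against the 7.58% and 6.05% over all regions these are counts of a few regions each.

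Away from promoters, AP-1 had the largest difference in percentage points of the 27 motifs searched. Each motif is a short word of bases, searched on both strands. In catagen replicates 1 to 4, 24.0%, 32.3%, 28.1% and 29.5% of listed peaks outside promoters held TGAGTCA within 100 bp of the summit, against 16.0% and 19.7% in anagen. The groups did not overlap (28.5% ± 3.46, n = 4, against 17.8% ± 2.58, n = 2), with a difference of 10.6 percentage points (exact permutation p = 0.0667, two-sided, 0.164 adjusted over 27 motifs). Of the regions, 222 of 565 catagen-listed ones outside promoters held the word (39.3%, interval 35.4 to 43.4), 182 of 1333 anagen-listed ones (13.7%, interval 11.9 to 15.6), and 26.6% of the others. Windows of the same length at all annotated protein-coding promoters held it in 3.36%. The NRF2 word, TGACNNNGC, can hold the AP-1 word, and was in 10.9% to 13.6% of catagen and 8.06% and 9.49% of anagen peaks outside promoters.

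LIM homeodomain words showed the opposite. They were in 3.04%, 2.08%, 2.74% and 2.88% of catagen peaks outside promoters and in 5.71% and 6.11% of anagen peaks (difference -3.23 percentage points, exact permutation p = 0.0667, two-sided, adjusted p = 0.164 by permutation). Of anagen-listed regions outside promoters 144 of 1333 held one (10.8%, interval 9.25 to 12.6), and of catagen-listed ones 10 of 565 (1.77%, interval 0.964 to 3.23). Of all annotated promoters, 1.12% held this word. The SOX word, AACAATG, in 2.23% of promoters, went the same way, in 4.64% to 5.21% of catagen and 5.47% and 6.05% of anagen peaks, a smaller gap. The GATA word, AGATAAG, in 1.81% of promoters, was in 3.62% to 4.81% of catagen and 2.89% and 2.51% of anagen peaks. KLF/SP words, in 17.3% of promoters, were in 5.78% to 8.37% against 3.57% and 4.14%, and median GC content of peaks outside promoters was 49.8% to 51.7% against 46.8% and 48.3%, so base composition moved with them, and its part was not tested. Outside promoters the groups did not overlap for 13 of the 27 motifs (48.1%), and over all listed peaks for 15 (55.6%). Over all listed peaks AP-1 words were in 13.8% to 18.2% of catagen and 12.2% and 13.6% of anagen peaks, and of the tested regions at promoters 5.38% held one. That difference of 3.29 percentage points was 0.437 in lists cut to 7090 peaks (exact permutation p = 0.800, two-sided). Without catagen replicate 1 the differences over all listed peaks were 4.09 percentage points for AP-1 and -2.51 for LIM homeodomain words. The direct repeats bound by RXR pairs (DR1, DR2 and DR5) were in at most 0.106% of listed peaks of any library, too few to compare.

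The words stood at the summits. For each library the share of peaks outside promoters with the word was counted in bins of 50 bp. AP-1 words were in 9.33% to 11.8% of peaks per bin within 50 bp of the summit in catagen and 5.91% and 7.56% in anagen. More than 400 bp away they were in 0.883% to 0.978% and 0.878% and 0.941%, so the flanks overlapped while the centres did not. LIM homeodomain words were in 0.578% to 0.899% at the centre in catagen and 1.80% and 2.0% in anagen, and their flanks, at 0.453% to 0.520% and at 0.640% and 0.622%, did not overlap either. The centre exceeded the flanks by 2.82 and 3.21 times in anagen and by 1.11 to 1.98 times in catagen.

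**Figure D2:**
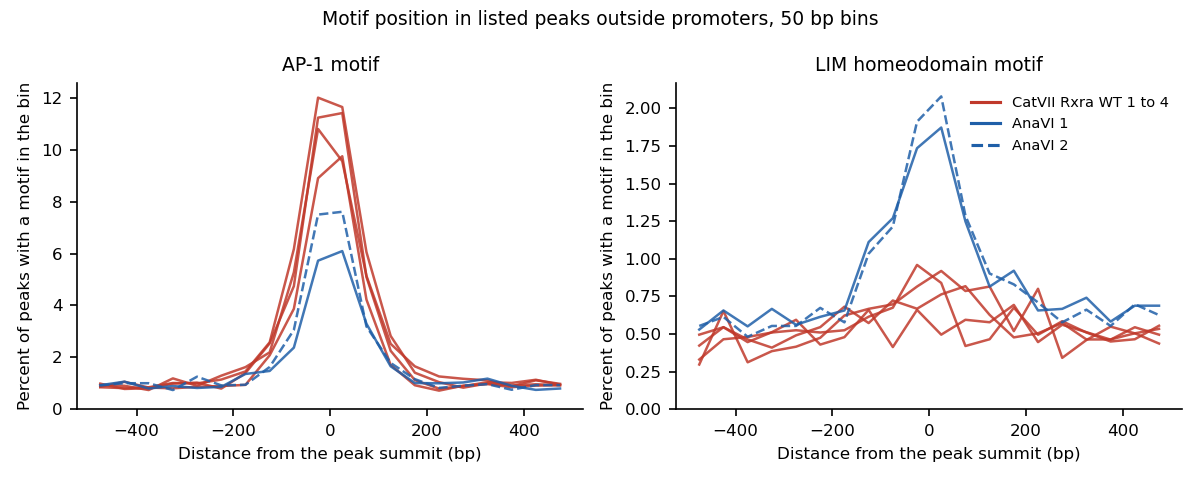
Share of listed peaks outside promoters with an AP-1 word (left) or a LIM homeodomain word (right) in each 50 bp bin, against the distance of the bin from the peak summit in bp, with 1 line for each library (red, catagen replicates 1 to 4; blue, anagen replicate 1 solid and replicate 2 dashed). AP-1 peaks at the summit in all 6 libraries and higher in catagen, while the LIM homeodomain peak stands out in both anagen libraries and barely rises in catagen.

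Both differences were followed down the ranks, since lists of equal length need not be equally deep. In ranks 3546 to 7090 AP-1 words were in 28.7% to 35.9% of catagen peaks outside promoters and in 18.1% and 21.5% of anagen peaks. In ranks 14182 to 28362, which anagen replicate 1 does not reach, they were in 18.8% to 26.7% against 15.2% in anagen replicate 2. In ranks 28363 to 42543 they were in 13.5% to 22.2% against 13.6%, and catagen replicate 1 no longer lay above anagen. Among the strongest peaks, ranks 1 to 3545, catagen replicate 1 (17.7%) lay below both anagen libraries (18.9% and 20.9%). LIM homeodomain words were more frequent in anagen in every band. They were in 2.30% to 3.01% against 5.99% and 7.62% in ranks 1 to 3545, and in 2.67% to 3.36% against 5.03% in anagen replicate 2 in ranks 28363 to 42543.

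**Figure D3:**
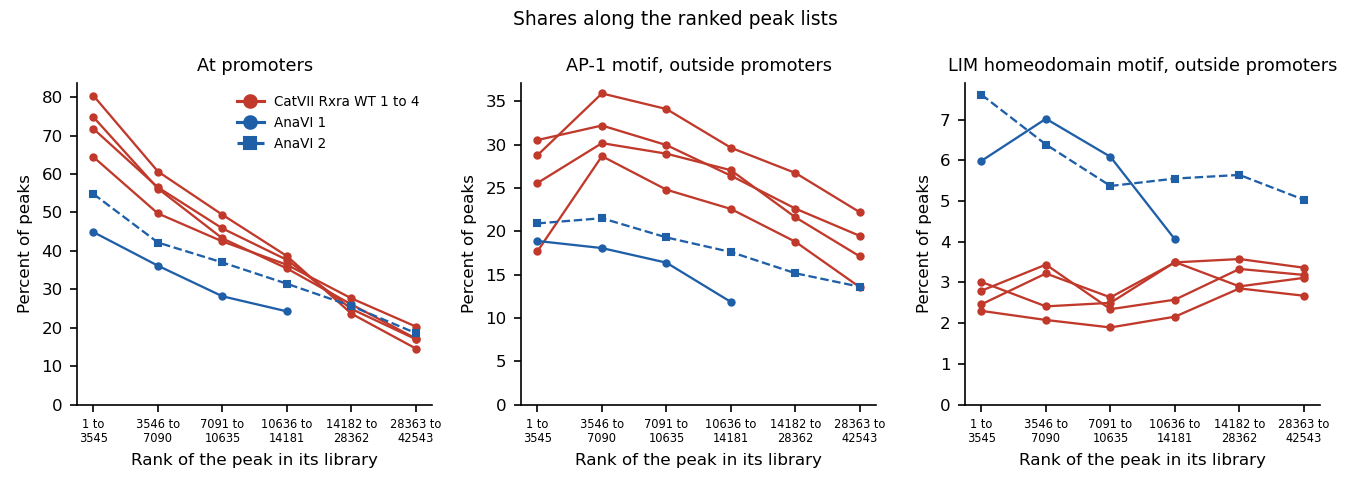
Percent of peaks at promoters (left), and of peaks outside promoters with an AP-1 (middle) or LIM homeodomain word (right), in 6 bands of rank from the strongest peaks on, for catagen replicates 1 to 4 (red) and anagen replicates 1 (blue circles, ending at rank 14181) and 2 (blue squares, dashed). The promoter lines meet beyond rank 14181, the AP-1 line of catagen replicate 1 meets that of anagen replicate 2 in the last band, and the LIM homeodomain lines stay apart in all bands.

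The other in vivo libraries of the series, which took no part in the choice of regions, were read the same way. They share the anagen libraries as the comparison, so their values are given side by side without a test. In the 6 CatVII wild type libraries, 39% to 83.7% of the catagen-listed and 1.36% to 7.22% of the anagen-listed regions were listed, against 30.9% to 65.1% of all tested regions. In CatVII Rxra cKO replicates 1, 2 and 3, 78.7%, 38.6% and 54.9% of the catagen-listed regions were listed and 9.94%, 34.5% and 36.0% of the anagen-listed ones, against 64.1%, 52.6% and 64.0% of all. All 3 Rxra cKO libraries thus listed more of the anagen-listed regions than any CatVII wild type library did. Their shortest called peaks were 117, 62 and 92 bp, against 126 to 150 bp in CatVII wild type and 58 and 89 bp in anagen. The part of fragment length, or of the Rxra deletion, in these shares was not tested. The stored names of replicates 2 and 3 both carry the tag m2, one with NonPhago and one with Phago, although the labels number them as m2 and m3. They may be 2 fractions of 1 mouse, in which case they are not separate replicates. CatVII wild type replicates 3 and 6 had fewer than 14181 peaks, so their whole lists were used.

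Promoters made up 50.4% to 57.2% of listed peaks in CatVII wild type, within the range of CatVII Rxra WT. LIM homeodomain words were in 1.61% to 2.83% of their peaks outside promoters, all below both anagen libraries. AP-1 words were in 14.2%, 29.0%, 12.8%, 20.4%, 20.7% and 20.2% in CatVII wild type replicates 1 to 6, the first 3 of which carry the tag Phago and the last 3 NonPhago. This range includes both anagen values, and 5 of these 6 libraries lay below all 4 CatVII Rxra WT libraries. The AP-1 share of CatVII Rxra WT was thus not that of all late catagen libraries. In CatVII Rxra cKO replicates 1, 2 and 3, AP-1 words were in 20.7%, 26.5% and 25.7% and LIM homeodomain words in 2.91%, 6.37% and 4.89%. Promoters made up 55.4%, 41.0% and 55.7% of listed peaks in these 3 libraries. The value of Rxra cKO replicate 2 thus lay between those of the anagen libraries (33.4% and 41.4%).

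**Figure D4:**
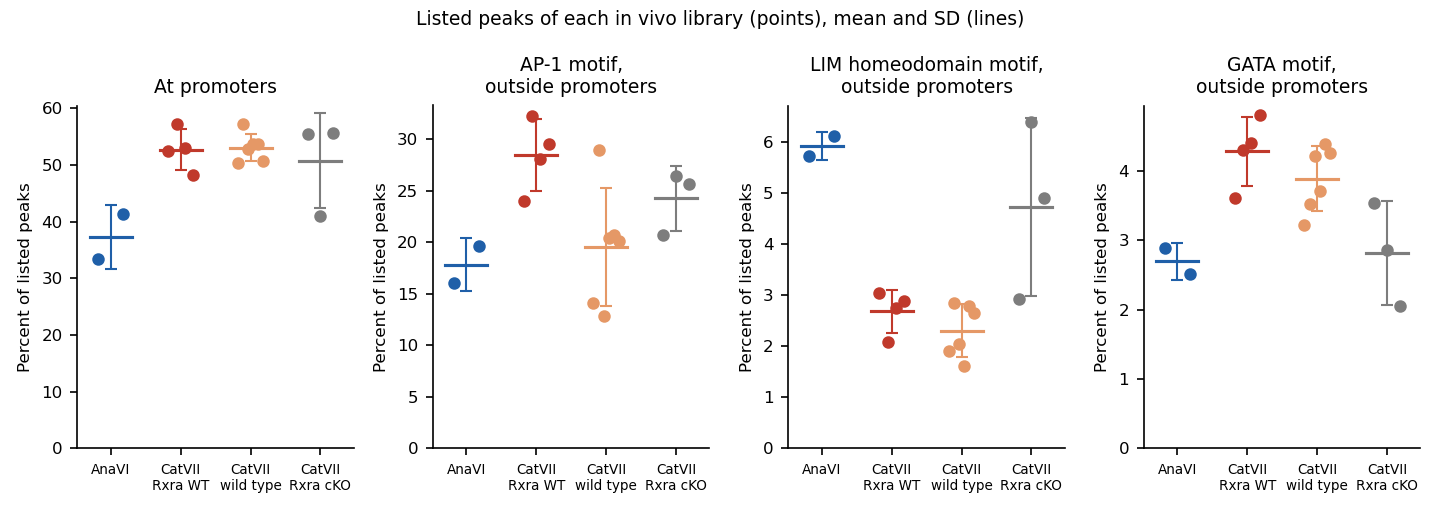
Percent of listed peaks at promoters, and of listed peaks outside promoters with an AP-1, LIM homeodomain or GATA word, in AnaVI (n = 2), CatVII Rxra WT (n = 4), CatVII wild type (n = 6) and CatVII Rxra cKO (3 libraries, of which 2 may share a mouse), with a point for each library, a horizontal line for the mean and bars for the SD. CatVII Rxra WT lies apart from AnaVI in all 4 panels, CatVII wild type spans the AnaVI values for AP-1 alone, and 1 Rxra cKO library (6.37%) lies above both AnaVI libraries for LIM homeodomain words.

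Regions with a called peak in all 6 libraries allowed a comparison of peak strength. There were 9124, and log2 fold enrichment, quantile normalised over the libraries, was fitted with limma. At an adjusted p below 0.05, 7 regions were stronger in catagen (0.0767%) and 0 in anagen (0%). At an unadjusted p below 0.05 the limma counts were 851 and 810, and with normal scores of the rank of -log10 p in place of fold, 121 and 299 passed. Catagen libraries all lay above anagen in 12.5% of regions and all below in 13.3%. Of the 7, the regions near Ajap1, Wls and Tmem196 and at the Mterf1b promoter lay wholly in repeated sequence, where reads cannot be placed with certainty.

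Of the others, the promoter of Rrm1, which encodes the large subunit of ribonucleotide reductase for DNA synthesis, had folds of 19.9, 23.8, 15.4 and 19.1 in catagen and 4.67 and 10.1 in anagen. Its log2 difference after normalisation was 1.04 ± 0.19 (SE; limma adjusted p = 0.0338). A region 5480 bp from Cd209a had folds of 46.5, 50.2, 34.4 and 41.6 against 9.45 and 19.4, a log2 difference of 1.25 ± 0.19 (limma adjusted p = 0.0182). The last, 23421 bp from Mplkipl1, had 35.6% of its words repeated. In all 3 the catagen libraries lay above both anagen libraries. With repeated sequence left out before the fit, 1 region passed, and without catagen replicate 1 none did. Without catagen replicates 2, 3 and 4 and anagen replicate 1, in turn, 2, 2, 3 and 3 passed. Without anagen replicate 2, 385 were stronger in catagen and 202 in anagen, so these counts rest on single libraries. With the replicate number as a block, 3 and 2 passed.

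By class, shared regions outside promoters with the LIM homeodomain word had a median log2 difference of -0.31 (n = 291), against -0.10 over all 5046 outside promoters and 0.11 at 4078 promoters. Of those 291, 105 had all catagen libraries below anagen and 8 all above. Of all 5046 outside promoters, 943 had all catagen libraries below and 437 all above, so these regions in general leaned the same way. Regions outside promoters with the SOX word had a median of -0.14 (n = 308) and those with the AP-1 word -0.01 (n = 1126). None of the regions outside promoters with a LIM homeodomain, SOX or AP-1 word passed the limma test by itself. Among gene lists, windows of phagosome maturation (n = 31) and lysosomal genes (n = 35) had medians of 0.15 and 0.13, against 0.01 over all 9124. Windows of constitutive genes (n = 19) had 0.13, much the same. The other clearance lists had 0.11 (phagocytic cup, n = 28), 0.01 (apoptotic cell receptors, n = 13) and -0.08 (bridging and eat-me proteins, n = 16). Windows of HFSC surface and niche genes (n = 29) had -0.26, of HFSC transcription factors (n = 37) -0.07 and of stress and wound response genes (n = 31) -0.21.

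**Figure D5:**
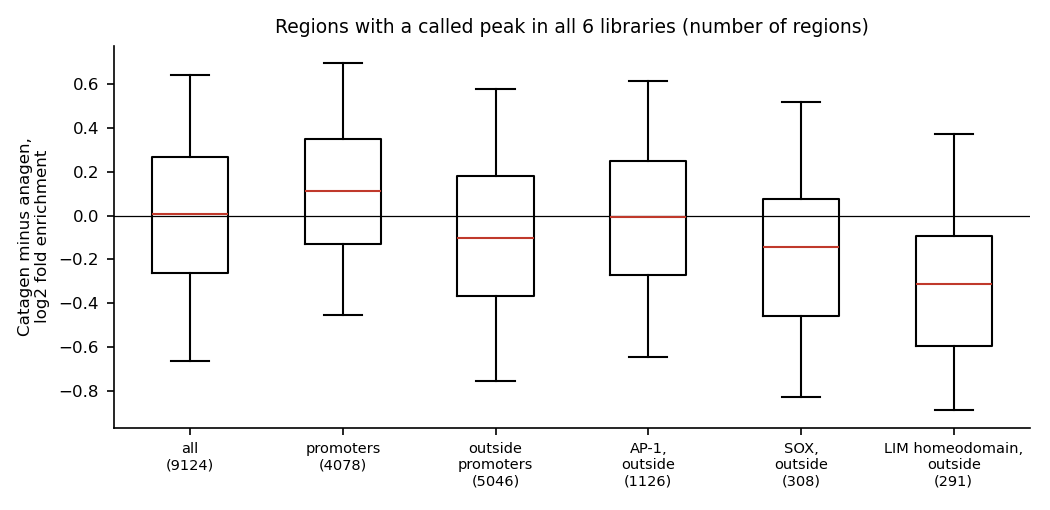
Difference in log2 fold enrichment, catagen minus anagen after quantile normalisation, in regions with a called peak in all 6 libraries, for all regions and by class, with boxes from the lower to the upper quartile, red lines at the medians and whiskers from the 5th to the 95th percentile. The LIM homeodomain class outside promoters is centred lowest, at -0.31, and its upper quartile (-0.09) is below 0. Regions without a called peak in the shallow anagen replicate 1 are left out of every class.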

How the data were processed

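ATAC-seq peaks were analysed in 4 CatVII Rxra WT and 2 AnaVI wild type libraries, grouped by GEO's labels. The authors used BWA 0.7.18 for alignment (mm39), SAMtools 1.17 to drop duplicate pairs, and MACS3 3.0.0 for peak calls, made library by library and with no control. The deposited values per peak are the fold enrichment at the summit, a ratio to the local background, and the -log10 p and -log10 q. The deposited lists hold no read counts, so depth was estimated from peak scores and limits how precisely weak peaks are ranked. The deposited fold ratio is relative to each library's own background.

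Each list was cut to the 14181 peaks of highest -log10 p on the 19 autosomes, X and Y. Peaks sharing at least 1 bp were merged, and regions with a peak in at least 2 libraries were tested. Promoters lay within 1 kb of a transcription start (GENCODE M39), and gene windows ran from 50 kb upstream to 5 kb downstream. Motifs were searched within 100 bp of the summit on both strands. Sequences came from the mm39 genome. Single values per library were compared by exact permutation of the libraries, with Benjamini-Hochberg adjustment. Fold enrichment in regions called in all 6 libraries was tested with limma 3.58.1 (R 4.3.3), after quantile normalisation, at an adjusted p below 0.05, and the scripts were tested on simulated data. The genome carried no repeat mask, so repeated sequence means that at least 50% of 25-base words occur at 2 or more places. This measure was chosen after seeing the files.

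Named genes were those nearest to the 10 best-ranked regions of each set, genes of 22 lists with such a region in their window (at most 15 a direction), a fixed panel of 14 genes and the regions that passed limma. 1 of the best-ranked regions and 1 promoter sequence are not reported here. Regions printed as sequences, and members of counts of 5 or fewer outside this rule (Rab7, Rilp, Mki67, Birc3, Pmaip1, Cd34 and Sfrp1), were chosen after their values were seen. The members and lists were chosen with earlier results of these data known. Alternatives were other list lengths, rankings, overlaps, promoter and window sizes, normalisations, a replicate block and each library left out.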

Additional observations from a re-analysis of the deposited data

Results flagged for a closer look

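Of 86 values checked in the 4 catagen libraries, 3 had a library far from the others, where chance gives about 1 in 20. NFI words outside promoters were in 1.24% of peaks in CatVII Rxra WT 4 and in 1.40% to 1.41% in the other libraries. Windows of LXR, PPAR and lipid handling genes held 0.275% of the listed peaks of CatVII Rxra WT 1 and 0.268% in each of the others. Windows of sebocyte markers held 0.0564% in CatVII Rxra WT 3 and 0.0353% in each of the others. The last 2 rest on few peaks, in which equal counts in 3 libraries let any other value stand out.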

How the results depend on the processing

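Of 110 alternatives to the tested differences, 106 kept the direction, of which 93 stayed within 1.5 times the reported value and 13 moved further. Windows at summits and the 50% cover change only how peaks are merged into regions. For differences in shares of listed peaks they return the reported value by construction, and they are counted among the 110 and the 93. Of 76 alternatives to counts of regions and to shares of these at promoters, 34 stayed close and 42 moved. With all called peaks, lists of unequal length, the promoter difference turned to -4.05 percentage points, that of KLF/SP words to -1.21 and that of the HFSC lists to 0.0442. With anagen replicate 1 left out and longer lists, chosen after seeing the data, the HFSC difference was 0.0177. The difference of SOX words over all listed peaks went from -1.18 to -0.253 percentage points with all called peaks and to -0.37 with the longer lists. That of LIM homeodomain words went from -2.47 to -1.63 with all called peaks, and that of KLF/SP words from 9.13 to 2.21 with the longer lists. That of the HFSC lists went from -0.116 to -0.176 in lists cut to 7090 peaks and -0.0764 without catagen replicate 2. The causes were not tested.

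Catagen-listed and anagen-listed regions numbered 424 and 802 in lists of 7090 peaks, 5579 and 202 with all called peaks, 238 and 330 where peaks had to cover 50% of a region, and 4669 and 9275 with longer lists and anagen replicate 2 alone. Promoters made up 64.2%, 18.1%, 31.9% and 21.0% of the catagen-listed regions under these settings in turn, and 44.8% within 250 bp of a start. They made up 7.61%, 3.47% and 6.36% of the anagen-listed regions under the first 3, 2.57% within 250 bp, 6.01% when ranked by fold and 6.49% with windows at summits.

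Without 1 library, catagen-listed regions numbered 1277 to 2973 and anagen-listed regions 1456 to 5448, and promoters made up 45.2% to 61.4% and 4.92% to 6.81% of them. Shared regions stronger in catagen and in anagen by limma numbered 0 to 385 and 0 to 202, the highest without anagen replicate 2, when the lone anagen library is assumed to vary like the others. They numbered 0 and 0 with median centring, 121 and 299 with rank scores and 1 and 0 without repeated sequence. With the replicate block they numbered 3 and 2. Deviations of same-numbered libraries correlated by 0.0959 and 0.0480 over 2 pairs, so the libraries share only a number.

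Depth limits the comparison, as do the 2 anagen libraries and the gate and genotype that go with the stage. Anagen replicate 1 fixes the list length at 14181 peaks, and its lowest listed -log10 p is 4.40.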
